A study of Mus musculus with 2 samples.

Results

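The transcripts described here were 557 of the 1443 unannotated long noncoding RNAs (new lncRNAs, named only by TCONS assembly numbers) in primary hepatocytes of mice with and without liver fibrosis. They were chosen by their summed read count, at least 50 over both libraries, and the other 886 had fewer. Nothing is therefore read from their depth as such. Both libraries came from livers of wild-type (WT) C57BL/6J mice, males of 5 weeks at the start according to the methods. The oil group was labelled as injected intraperitoneally with oil, and its labels give the same course of 2 injections a week for 8 weeks. The CCl4 group received a 20% solution of CCl4, a hepatotoxin, in mineral oil, at 2.5 ml CCl4 per kg, given 2 times a week for 8 weeks according to the labels. The methods describe a shorter course of injections, and how many mice each library pooled was not stated. Each group held 1 library, so there was no replicate spread and no test between groups. Ratios therefore carry exact 95% Clopper-Pearson intervals, which cover counting error only, and reads without molecular identifiers are not independent molecules.

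Long noncoding RNAs are transcripts that are not translated into long proteins. Some act in the nucleus on chromatin, some are made across enhancers or on the strand opposite a gene, and some have no known product function. An assembler that joins aligned reads can list as a new transcript anything that does not match its annotation, including unspliced RNA from introns and RNA beyond the end of a known gene. CCl4 is turned into radicals by cytochrome P450 enzymes of the hepatocyte, and repeated dosing leads to fibrosis, in which hepatic stellate cells become matrix-producing myofibroblasts.

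The libraries held 62438177 (oil) and 70960840 (CCl4) reads, as implied by the deposited counts, lengths and RPKM values (reads per 1000 bases of transcript and 1000000 reads of the library). Hepatocyte markers dominated both, with Alb (albumin) at 8656 RPKM in oil and 6476 in CCl4, although 6 of 7 hepatocyte markers were lower in CCl4 and Afp was listed at 0 in oil. The summed hepatocyte list stood at 15587 RPKM in oil and 9560 in CCl4. All 8 stellate cell and myofibroblast markers were higher in CCl4, from 69.8 to 709 RPKM in sum, with Pdgfrb listed at 0 in oil and Col1a1, a fibrillar collagen chain, at 3.02 and 131 RPKM. Kupffer cell (659 to 1026 RPKM, 3 of 4 higher), sinusoidal endothelial (356 to 576, 4 of 4), cholangiocyte (13.4 to 25.1, 3 of 4, Sox9 at 0 in both) and lymphocyte lists (14.4 to 28.6, 2 of 3, Cd3e at 0 in both) were also higher in sum. The erythroid list was lower (2051 to 1413 RPKM, 0 of 3 higher). The part of these other cell types in the ratios below was not tested, and in bulk RNA fewer cells of a type cannot be told apart from less RNA per cell.

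Of the 557 members, 33 reached into a window from 250 bases before to 50 bases after the start of a RefSeq gene, of which the table holds 32851. The 4 windows shown here, from RefSeq on GRCm38.p6, were chosen after their values were seen, because they show the ways in which members met known starts: across a whole window, upstream of a start outside the gene, upstream of one start within the bounds of a gene, and at a spliced start. Each is written 5′ to 3′ on the strand of the gene, with capitals for the bases inside the outer bounds of the member:
Gm30262: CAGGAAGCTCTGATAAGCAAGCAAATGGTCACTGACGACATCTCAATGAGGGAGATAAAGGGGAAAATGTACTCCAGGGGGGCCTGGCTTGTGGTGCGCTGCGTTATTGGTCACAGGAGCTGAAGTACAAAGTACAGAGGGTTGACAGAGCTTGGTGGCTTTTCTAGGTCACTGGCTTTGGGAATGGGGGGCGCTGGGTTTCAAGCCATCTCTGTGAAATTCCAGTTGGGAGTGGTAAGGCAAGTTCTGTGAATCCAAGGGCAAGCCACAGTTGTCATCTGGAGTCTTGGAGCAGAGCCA
Tpra1: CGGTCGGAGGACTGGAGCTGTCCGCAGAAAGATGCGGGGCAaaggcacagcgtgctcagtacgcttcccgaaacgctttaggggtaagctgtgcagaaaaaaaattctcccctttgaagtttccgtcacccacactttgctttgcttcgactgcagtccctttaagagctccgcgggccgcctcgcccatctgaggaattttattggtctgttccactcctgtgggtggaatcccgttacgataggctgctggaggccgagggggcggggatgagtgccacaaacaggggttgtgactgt
Zfp800: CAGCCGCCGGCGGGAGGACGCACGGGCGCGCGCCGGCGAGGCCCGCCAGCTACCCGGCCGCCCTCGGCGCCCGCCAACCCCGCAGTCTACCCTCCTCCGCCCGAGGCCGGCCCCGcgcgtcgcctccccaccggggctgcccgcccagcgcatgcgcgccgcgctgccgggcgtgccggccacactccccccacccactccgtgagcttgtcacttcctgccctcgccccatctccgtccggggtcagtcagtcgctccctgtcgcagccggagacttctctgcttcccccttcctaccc
Gm30081: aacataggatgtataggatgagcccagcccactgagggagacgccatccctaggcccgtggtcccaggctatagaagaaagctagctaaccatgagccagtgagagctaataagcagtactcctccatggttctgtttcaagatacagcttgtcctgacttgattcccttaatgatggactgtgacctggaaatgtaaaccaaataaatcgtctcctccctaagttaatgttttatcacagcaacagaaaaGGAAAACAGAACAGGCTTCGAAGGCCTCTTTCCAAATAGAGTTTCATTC

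The Gm30262 window (chr10:111599475-111599774, plus strand) lay wholly within TCONS_00009170, with 78 reads in oil and 8 in CCl4, a log2 ratio of -3.39. In the Tpra1 window (chr6:88902001-88902300, plus strand) only the 41 outermost bases belonged to TCONS_00067421, which held 20 reads in oil and 73 in CCl4 (log2 ratio 1.66). Tpra1 encodes a membrane protein with several transmembrane segments, and the member ended upstream of its start. In the Zfp800 window (chr6:28261875-28262174, minus strand) the 115 outermost bases belonged to TCONS_00067978, listed on the plus strand and within the bounds of this zinc finger gene (chr6:28210548-28398033), upstream of this start only, with 139 reads in oil and 250 in CCl4 (log2 ratio 0.66). The Gm30081 window (chr8:124152912-124153211, minus strand) held the first 49 bases of the spliced TCONS_00078295, with 367 reads in oil and 203 in CCl4 (log2 ratio -1.04). This transcript began 1 base inside the RefSeq start of a lncRNA gene on the same strand. A TATA box core (TATAAA, either strand), present in 13.6% of all RefSeq windows of the same length, was found in 0 of the 4. A GC box core (GGGCGG, either strand), present in 35.7% of windows, occurred 1 time in the Tpra1 window and 3 times in the Zfp800 window, whose G and C content was 77.3%, and 0 times in the other two. Neither motif overlaps the other.

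Members held 29413 reads in oil (69.9% of the reads on all new lncRNAs) and 32713 in CCl4 (66.2%). Counted per 1000000 reads of the library (CPM) that was 471 in oil and 461 in CCl4. The median member had 37 reads in oil (range 4 to 795) and 42 in CCl4 (0 to 533), or 0.593 and 0.592 CPM. The median level thus hardly differed between the libraries. The highest CPM was 12.7 in oil and 7.51 in CCl4. On the per-length scale the median was 0.417 RPKM in oil and 0.432 in CCl4, and 78 members in oil and 67 in CCl4 reached 1 RPKM, 41 of them in both.

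Lengths ran from 272 to 7696 bases, with a median of 1407 (quartiles 1021 and 1889), against a median of 901.5 bases below the read minimum. Longer transcripts collect more reads at a given level, and length and summed reads had a Spearman rank correlation of 0.35 over the 557 members. The read minimum therefore also favoured long transcripts. Unspliced transcripts, whose length equals their span on the genome, made up 518 of the members, and 497 of these were listed on the plus strand. Among unspliced plus-strand members within protein-coding genes, 104 lay in genes on the plus strand and 80 in genes on the minus strand, so the listed strand was not read as the strand of transcription. The 39 spliced members were spread over a median span of 5659 bases (range 510 to 81683) and had a median length of 1234 bases. Only 5 of them began within 100 bases of a RefSeq start on their strand, in Gm30081, Gm30784, Gm33318, Gm33149 and Gm33973.

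Against RefSeq gene bounds, 241 members (43.3%) lay in or across 105 protein-coding genes, 104 (18.7%) in 60 lncRNA genes and 27 (4.85%) in other genes such as pseudogenes and small RNAs. The remaining 185 (33.2%) met no RefSeq gene, at a median of 6264 bases from the nearest protein-coding gene. Gene bounds alone were available, so whether a member lay in an exon or an intron was not determined.

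Several of the members with the highest level per length sat on small structured RNAs, namely transfer RNA (tRNA) and small nuclear RNA (snRNA) genes, which 10 members overlapped in all. In CCl4 the 5 highest RPKM values among the 557 members all belonged to these 10, whereas in oil these 5 ranked 1, 3, 4, 8 and 37, and TCONS_00048019 in B3galt1 was second at 7.62 RPKM. TCONS_00014680 and TCONS_00015007, listed on opposite strands over the snRNA gene Gm23971 on chromosome 11, had 282 reads each in oil and 531 and 533 in CCl4, at 8.30 and 6.56 RPKM in oil and 13.8 and 10.9 in CCl4. Near-equal counts on both strands of one place mean that these 2 rows cannot be taken as separate measurements. TCONS_00042149, over the tRNA gene n-TFgaa6, had 138 reads in oil and 289 in CCl4 (log2 ratio 0.88, interval 0.58 to 1.19). TCONS_00015167, over n-TGacc1, had 87 and 231 reads (log2 ratio 1.22, interval 0.86 to 1.60). TCONS_00063419, over n-TDgtc14, had 36 and 113 reads (log2 ratio 1.45, interval 0.91 to 2.05). These 3 were higher in CCl4, whereas the members over n-TLtag2 (39 and 16 reads), n-TIaat16 (34 and 27) and n-TRacg2 (34 and 26) had log2 ratios of -1.44, -0.51 and -0.57. The interval of the first lay below 0 (-2.41 to -0.60), but those of n-TIaat16 (-1.30 to 0.25) and n-TRacg2 (-1.37 to 0.21) spanned it. These members were also longer, at 610 to 1187 bases against 294 to 383 for the 3 higher ones. The remaining snRNA members went both ways, TCONS_00052802 over Gm22043 (68 and 20 reads) at -1.93 and TCONS_00053440 over Gm22614 (27 and 52 reads) at 0.75. Such genes belong to families of near-identical copies, so the assignment of their reads is uncertain.

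The log2 ratio of CCl4 to oil CPM, with 0.5 reads added to each library, had a median of 0.29 over members (quartiles -0.80 and 0.87, range -7.55 to 3.35). The lowest value belonged to a member with 0 reads in CCl4, TCONS_00077297, depends on the reads added, and was -4.31 with 5 reads added. The sums of all member reads differed by only -0.03 on the log2 scale. In number, 317 members lay above 0 and 240 below, although the summed reads were nearly even. The median over all 1443 new lncRNAs was 0.46, so most of them also lay above 0. At least 2-fold higher in CCl4 were 106 members (19.0%, against 32.1% of all 1443 new lncRNAs), and at least 2-fold lower 117 (21.0%, against 24.7%), leaving 334 within 2-fold. The counting interval lay above 0 for 194 members (34.8%, against 37.0% of all) and below 0 for 156 (28.0%, against 26.8%), and it spanned 0 for 207. The shares over all new lncRNAs include the shallow rows that the read minimum left out, so the differences from them are not a result about the members. At 4-fold, 43 members were lower (7.72%, against 11.7% of all) and 21 higher (3.77%, against 12.8%). At 8-fold, 18 were lower (3.23%, against 5.27%) and 4 higher (0.718%, against 4.44%).

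The balance of gains and losses depended on the scale. With the median mRNA set to 0, over 14854 mRNA transcripts at 1 RPKM or more in both libraries, every log2 ratio moved by -0.33, giving 270 members above 0, 287 below, and 70 higher and 155 lower by at least 2-fold. With median-of-ratios factors over the new lncRNAs the shift was -0.47, with 236 above 0, 321 below, 49 higher and 171 lower. Higher members thus made up 47.5% of 2-fold calls on the library totals, 31.1% on the mRNA scale and 22.3% on the median-of-ratios scale. Each scale moves all members by one constant, so their order did not change.

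**Figure D1:**
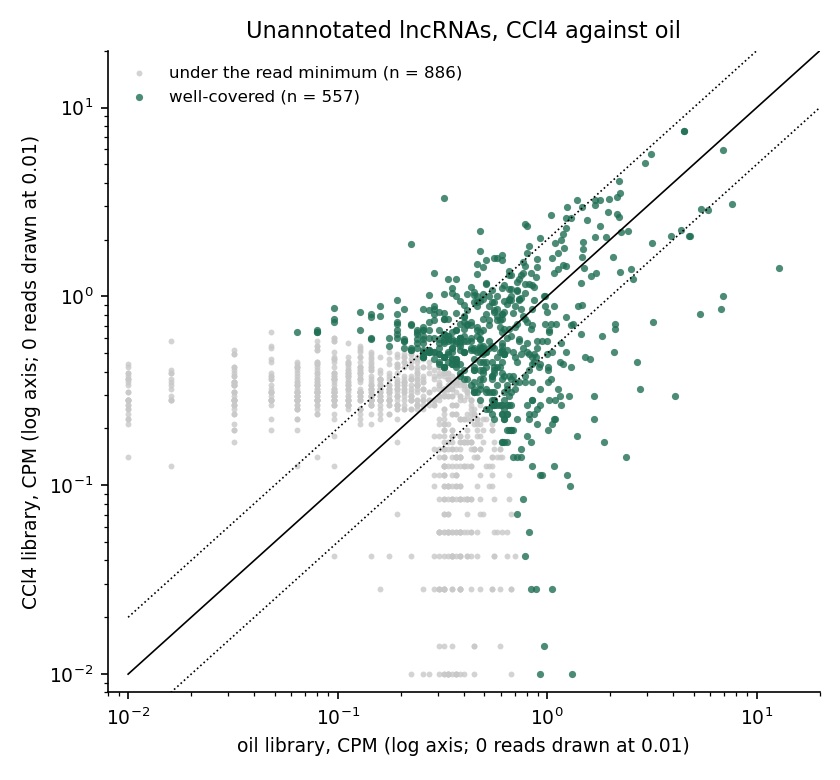
CPM of the 557 members in the oil library (x axis) and the CCl4 library (y axis), both on log axes with 0 reads drawn at 0.01 CPM, with a solid line for equal values, dotted lines for 2-fold differences and, in grey, the 886 rows under the read minimum. The members centre near equality at about 0.593 CPM in oil and 0.592 in CCl4, and the members more than 4-fold from the diagonal number 43 on the lower side and 21 on the upper.

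At 50 reads, the lowest depth included, 16 members had log2 ratios from -3.23 to 3.18 (median 0.39). The 23 rows just outside, at 49 reads, ran from -2.47 to 3.55 (median 0.34).

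Of the members higher in CCl4, TCONS_00063155 (chr5:52533520-52535271) stood first, with 20 reads in oil and 237 in CCl4 and a log2 ratio of 3.35 (interval 2.72 to 4.12). It lay within Lgi2, which encodes a secreted leucine-rich protein, and whose mRNA was listed at 0 in oil and at 2.60 RPKM in CCl4. TCONS_00009603 (chr10:69525793-69528643) had 14 and 134 reads, a log2 ratio of 3.03 (interval 2.28 to 3.98), and lay 4843 bases from Ank3, the gene of the membrane adaptor ankyrin-G. TCONS_00009587, 35184 bases from Ank3, had 5 and 47 reads (log2 ratio 2.93, interval 1.72 to 4.74). TCONS_00009586, 37299 bases from Ank3 and outside the 8 largest ratios, had 6 and 52 reads (log2 ratio 2.83). The 3 members with Ank3 as nearest protein-coding gene were thus all high in CCl4. With so few oil reads, however, each of these 3 could reach the read minimum only through its CCl4 reads. The minimum left room only for ratios above 0 at those oil counts, so their shared direction is not read as a pattern around Ank3. TCONS_00078477 lay over Hand2os1, the lncRNA gene divergent to the transcription factor gene Hand2, with 6 and 54 reads (log2 ratio 2.88, interval 1.77 to 4.49). TCONS_00058471 was 1624 bases from Id3, which encodes an inhibitor of helix-loop-helix factors, with 5 and 46 reads (log2 ratio 2.90, interval 1.69 to 4.71). The oil counts behind these ratios were small, between 4 and 20 reads for all 8, and the intervals were correspondingly wide. At such oil counts the read minimum left room only for ratios above 0, so the direction of these 8 is not read as a result. The others were TCONS_00063534 in Fry (4 and 46 reads, log2 ratio 3.18), TCONS_00022701 over Platr25 (6 and 62 reads, 3.08) and TCONS_00036901 in Gm30958 (5 and 46 reads, 2.90).

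At the other end, 2 members had 0 reads in CCl4, where 3 reads, taken as the limit that a count of 0 allows, are worth 0.0423 CPM. The spliced TCONS_00077297 (chr8:114010458-114092140, minus strand), in the lncRNA gene Gm30107, had 82 reads in oil, and its counting interval lay wholly below a log2 ratio of -4.63. TCONS_00056047 (chr4:62011284-62012008, minus strand), at one end of the major urinary protein gene Mup20, had 58 reads in oil and an interval wholly below -4.11, while the Mup20 mRNA stood at 1851 RPKM in oil and 327 in CCl4. The Mup genes are near-identical copies, so this assignment is uncertain. TCONS_00064539 (chr6:83659696-83661618) fell from 60 reads to 1, a log2 ratio of -5.52 (interval -11.42 to -3.56). It lay 3580 bases from Clec4f, the gene of a Kupffer cell lectin whose mRNA hardly differed, at 283 RPKM in oil and 255 in CCl4. TCONS_00000576, a spliced transcript in Gm30308, had 66 and 2 reads (log2 ratio -4.92, interval -8.30 to -3.32). TCONS_00004245 (55 and 2 reads, log2 ratio -4.66) and TCONS_00009223 (52 and 2 reads, -4.58) met no RefSeq gene. The 8 smallest ratios were completed by TCONS_00048019 in B3galt1 (149 and 10 reads, log2 ratio -4.02, interval -5.17 to -3.16) and TCONS_00014253 in Gm39583 (49 and 3 reads, -4.01), 13868 bases from Egfr, the epidermal growth factor receptor gene. All 8 had from 0 to 10 reads in CCl4, where the read minimum left room only for ratios below 0. Their shared direction is therefore not read as a result either.

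The 6 members with the highest mean CPM had log2 ratios from -3.17 to 0.86. TCONS_00049033 in B3galt1 led, with 795 reads in oil and 100 in CCl4 (12.7 and 1.41 CPM, log2 ratio -3.17, interval -3.49 to -2.87). TCONS_00078382, a 6815-base transcript in the lncRNA gene Gm32098, had 429 and 421 reads and a log2 ratio of -0.21 (interval -0.41 to -0.01). After the pair over Gm23971 came TCONS_00009520 in Cep85l, a centrosomal protein gene, with 475 and 218 reads (log2 ratio -1.31, interval -1.55 to -1.07), and TCONS_00083185 in Maml2, with 196 and 404 reads (log2 ratio 0.86, interval 0.61 to 1.11). At this depth the intervals were narrow, and that of TCONS_00078382 alone came close to 0. The Cep85l mRNA was also lower, at 10.9 RPKM in oil and 4.77 in CCl4.

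The 3 longest members were TCONS_00068571 in Sox5 (7696 bases, 183 and 362 reads, log2 ratio 0.80), TCONS_00078382 and TCONS_00083185 (6679 bases). The 3 shortest were TCONS_00078344 over the pseudogene Gm21811 (272 bases, 17 and 36 reads, log2 ratio 0.88), TCONS_00032758 in Usp7, a deubiquitinase gene (280 bases, 10 and 56 reads, log2 ratio 2.24), and TCONS_00047731 in Myo3a, a myosin gene (284 bases, 39 and 16 reads, log2 ratio -1.44). Neither end of the length range held members of only one direction.

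Length had a weak relation to the ratio. Over 557 members the log2 ratio and length had a Spearman rank correlation of 0.12, a description across transcripts that share the same 2 libraries and are not replicates. In 4 classes of nearly equal size by length, the median log2 ratios were 0.17 (272 to 1021 bases), 0.04 (1022 to 1407), 0.04 (1414 to 1889) and 0.59 (1899 to 7696). The longest class had the highest median. It held 39 members at least 2-fold higher (28.1%) and 24 lower (17.3%), against 23 and 33, 23 and 27, and 21 and 33 in the others, and 32.1% and 24.7% of all new lncRNAs. On the mRNA scale the first 3 classes turned negative (-0.16, -0.29 and -0.29) and the longest kept its sign at 0.26. Many long members lay in a few genes, and without the 8 genes that held 5 or more members each, the rank correlation was -0.01 (n = 423). Within the 2 runs of TCONS numbers described after the depth it was -0.23 in the first and 0.10 in the second.

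Depth had no single relation to the ratio. The rank correlation between log2 ratio and summed reads was 0.04, and between its absolute value and summed reads -0.04. The pooled value joined a positive relation in the first numbering run (0.30, n = 198) and a negative one in the second (-0.17, n = 263). In 4 such classes by depth the medians were 0.11 (50 to 60 reads), 0.19 (60 to 75), 0.22 (75 to 112) and 0.41 (113 to 895). The standard deviation of the ratios was 1.56, 1.32, 1.37 and 1.32 in these classes, against median counting errors of 0.41, 0.37, 0.32 and 0.24. The spread between members thus exceeded counting error several times over and changed little with depth above 50 reads. Counts of members at least 2-fold higher and lower were 28 and 39, 26 and 22, 27 and 30, and 25 and 26 on the library totals. The shares over all new lncRNAs were 32.1% higher and 24.7% lower.

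**Figure D2:**
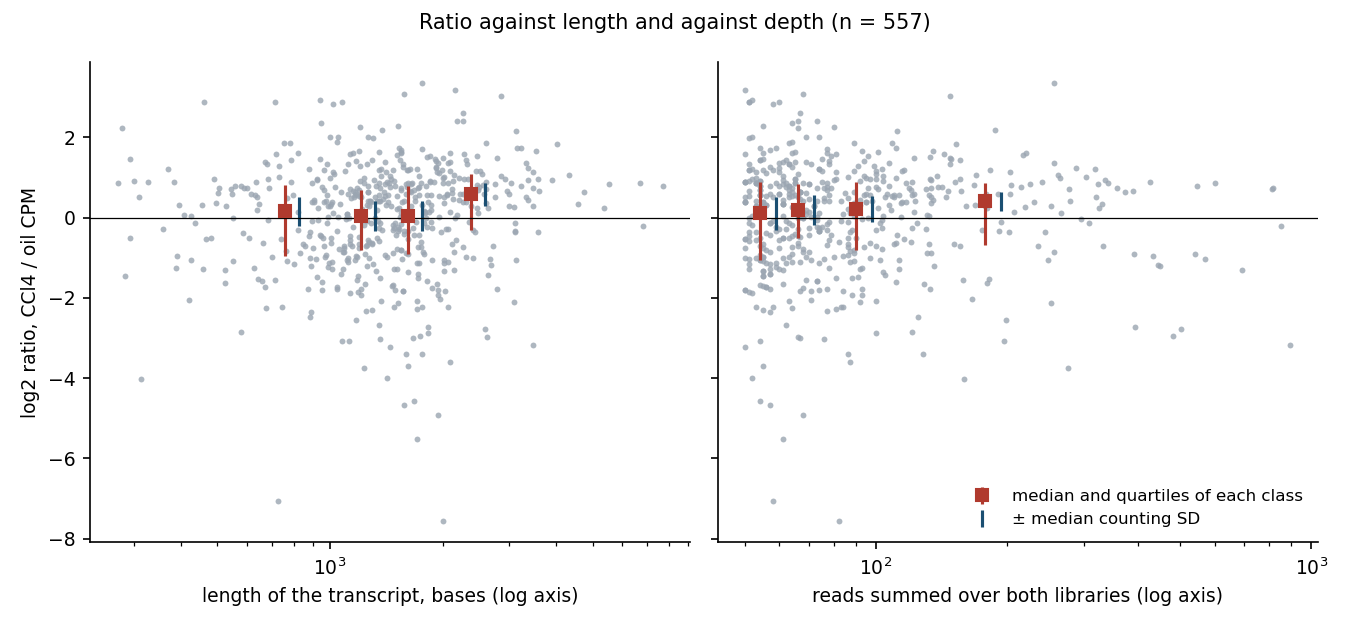
Log2 ratio of CCl4 to oil CPM of each of the 557 members against transcript length in bases and against summed reads, both on log x axes, with red squares and bars for the median and quartiles of 4 classes of nearly equal size and blue bars for the median counting error. The medians stay between 0.04 and 0.22 in the lower 3 classes of both, and lie at 0.59 in the longest class and 0.41 in the deepest.

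The TCONS number itself separated the ratios more than either. Among unspliced plus-strand rows, the numbers follow position along each chromosome in 2 long ordered stretches and some short ones, the long ones giving a first and a second numbering run on each of 20 chromosomes. These runs were defined after the data were seen, from numbers and positions only. The 198 members of the first runs had a median log2 ratio of -0.57, with 10 (5.05%) at least 2-fold higher and 74 (37.4%) at least 2-fold lower. The 263 of the second runs had a median of 0.69, with 82 (31.2%) higher and 19 (7.22%) lower. The 96 other members (spliced, or on the minus strand, or outside both runs) had a median of 0.01, with 14 higher and 24 lower, and all 172 such rows had a median of 0.28, with 42 higher and 45 lower. Members of the first runs thus leaned to oil and those of the second to CCl4. Over all rows the shares were wider apart, with 2.04% higher and 59.2% lower among 490 first-run rows and 52.6% higher and 2.69% lower among 781 second-run rows. On the other scales every value moves by the same constant, and the second-run median of the members was 0.37 on the mRNA scale and 0.22 with median-of-ratios factors, where that of the 96 others was -0.32 and -0.46.

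Over members the second run had the higher median on 19 of 20 chromosomes, chromosome 12 being the exception, and over all rows on 20 of 20. First-run medians by chromosome lay between -1.97 and 0.33 and second-run medians between -0.26 and 1.22. The lowest counts in the whole table followed the same split. Of 490 first-run rows, 0 had 0 reads in oil and the lowest oil count was 9, whereas 14 had 0 reads in CCl4. Of 781 second-run rows, 0 had 0 reads in CCl4 and the lowest CCl4 count was again 9, whereas 22 had 0 reads in oil. A floor in one library and none in the other thus accompanied each run. Which library or libraries each transcript was assembled from is not given in the sources used here, and its part in the ratios was not tested.

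**Figure D3:**
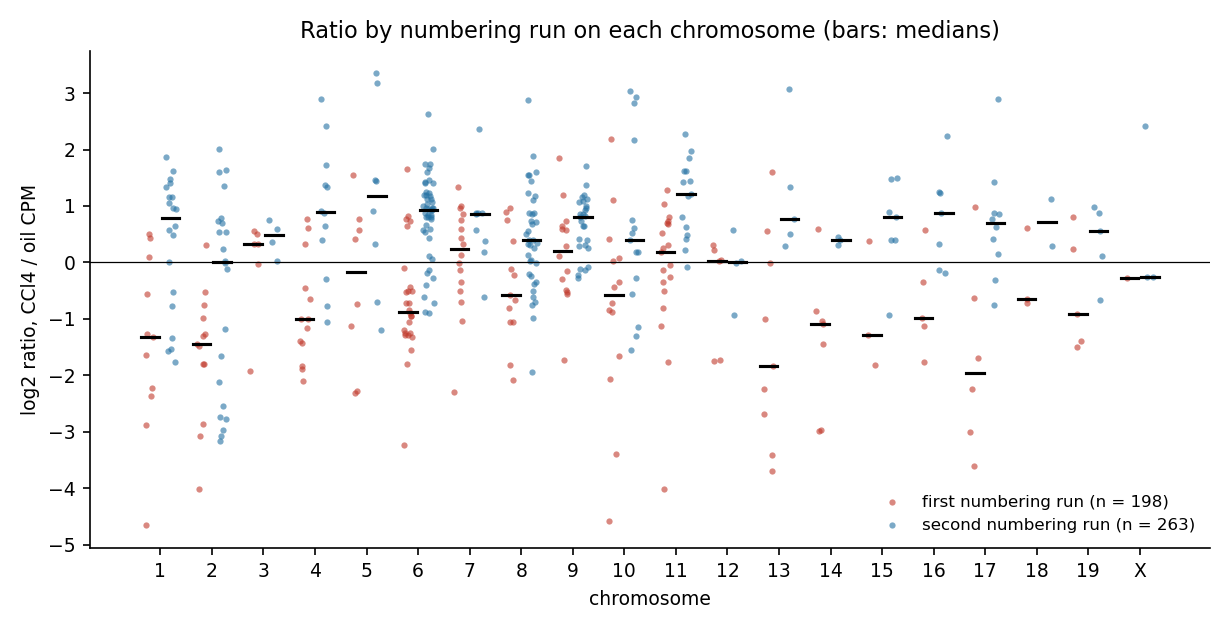
Log2 ratio of CCl4 to oil CPM (y axis) of the 198 members of the first numbering runs and the 263 of the second, by chromosome (x axis), with a black bar for each median. The second run has the higher median on 19 of the 20 chromosomes.

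Members with consecutive TCONS numbers changed together. There were 74 such pairs, formed by 135 members, and their log2 ratios had a Pearson's r of 0.82 (each pair entered in both orders, a description with no test). The sign was shared in 59 pairs (79.7%), against 50.9% of all 154846 pairs of members. For pairs of the same numbering run on different chromosomes it was 59.9%. Both members were at least 2-fold higher in 8 pairs, both at least 2-fold lower in 9, and opposite in 1. Among all 154846 pairs these counts were 5565, 6786 and 12402. All 74 pairs lay within a run or among the other members, and with the median of each run subtracted r was 0.76, so the likeness was also present within runs. The median difference within a pair was 0.42 log2 units.

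The likeness faded with the gap in number. It was 0.74 for gaps of 2 to 5 (184 pairs, 83.7% of one sign), 0.63 for gaps of 6 to 20 (541 pairs, 79.7%), 0.14 for 21 to 100 (1219 pairs, 62.8%) and 0.12 for 101 to 400 (2895 pairs, 53.7%). Over all pairs r was -0.00. Numbers more than 20 apart thus told little about each other. Close numbers were also close places, since consecutive members lay a median of 474 bases apart and 66 of the 74 pairs within 10 kb. Only 6 pairs overlapped, and r was 0.82 in the 68 that did not. In the 66 near pairs the median difference was 0.38 log2 units and 5 pairs differed by more than 1, whereas in the 8 pairs over 10 kb apart it was 1.11 and 6 differed by more than 1. The single opposite pair, TCONS_00082537 (42 reads in oil, 14 in CCl4, log2 ratio -1.74) and TCONS_00082538 (32 and 84 reads, 1.19), had 322850 bases between its members.

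Distance on the chromosome gave the same picture without the numbers. Pairs 1 to 10 kb apart had an r of 0.84 (216 pairs), those 10 to 50 kb apart 0.83 (492) and those 50 to 200 kb apart 0.74 (702), and the value was -0.28 at 200 to 1000 kb (369 pairs). Neighbours up to 200 kb apart therefore had similar ratios, and more distant ones did not. Without the 8 genes with 5 or more members, r was 0.80 (70 pairs), 0.80 (53) and 0.55 (28) over the first 3 distances and -0.35 (114) at the fourth. Neighbours in different runs were alike too, with an r of 0.76 at 1 to 10 kb in 46 pairs of a first-run and a second-run member. On different chromosomes, pairs of the same run had an r of 0.20 and pairs of different runs -0.21.

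**Figure D4:**
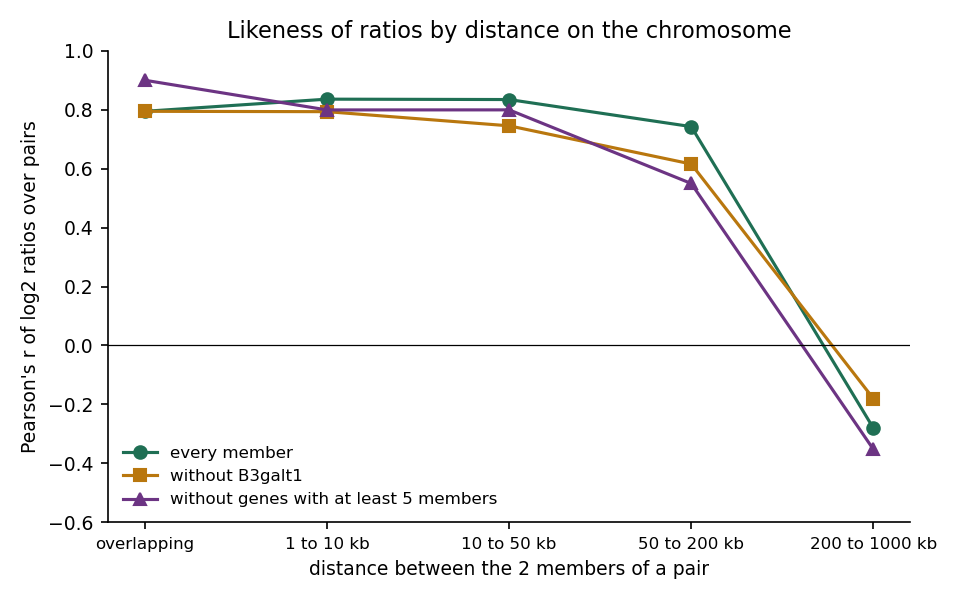
Pearson's r of the log2 ratios of member pairs by distance between them on the chromosome (x axis, from overlapping to 1000 kb), for every member, without B3galt1, and without the 8 genes that hold at least 5 members. The values stay at 0.55 or above up to 200 kb and lie below 0 at 200 to 1000 kb.

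The longest series of consecutive numbers, TCONS_00067241 to TCONS_00067246, held 6 members within Lncpint. Their reads in oil and CCl4 were 114 and 44, 53 and 31, 63 and 29, 34 and 27, 65 and 51, and 53 and 25, giving log2 ratios of -1.55, -0.95, -1.29, -0.51, -0.53 and -1.25. All 6 ratios lay below 0, 3 of them by 2-fold or more, and the intervals of TCONS_00067244 (-1.30 to 0.25) and TCONS_00067245 (-1.09 to 0.02) spanned 0. The 4 members TCONS_00067233 to TCONS_00067236, also in Lncpint, had 63 and 30, 50 and 40, 272 and 160, and 244 and 148 reads (log2 ratios -1.24, -0.50, -0.95 and -0.90). There were 7 series of 3 members, of which 2 were all lower, 3 all higher and 2 of mixed sign (TCONS_00014805 to TCONS_00014807, -1.13 to 0.19, and TCONS_00078527 to TCONS_00078529 in Psd3, -0.99 to 0.14). The lowest in number, TCONS_00004564 to TCONS_00004566, lay on chromosome 1 between 46514 and 49521 bases from Crp, the C-reactive protein gene, and met no RefSeq gene. Its 3 members had 41 and 19, 67 and 16, and 87 and 13 reads, with log2 ratios of -1.27, -2.22 and -2.88. All 3 were lower in CCl4, and the intervals of the first (-2.16 to -0.48) and the last (-3.89 to -2.08) overlapped only slightly.

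Overlapping members showed how far 2 rows over the same place can differ. There were 36 overlapping pairs, formed by 63 members, 7 of them on opposite strands and 0 with equal counts in both libraries. TCONS_00003873 (132 and 48 reads) and TCONS_00004961 (131 and 51 reads) on chromosome 1 had log2 ratios of -1.63 and -1.54, and overlap by 340 bases, so they may share reads. TCONS_00082517 (37 and 30 reads) and TCONS_00083199 (23 and 58 reads) in Maml2 had -0.48 and 1.13. In the 20 overlapping pairs of a first-run and a second-run member, the second-run member had the higher ratio in 16, by a median of 0.31 log2 units over the 20 (range -0.39 to 1.61). The order of the runs was thus also seen within single places.

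Members were unevenly spread over genes, with 134 of them in 8 genes that held at least 5 each. The host genes were named after the values were seen. All values below are reads in oil and then CCl4, with log2 ratios of the summed CPM and their counting intervals, and on every scale tried the median of each gene's members kept its sign. Some members of Sox5, Maml2 and Gm39256 overlap, so their sums may count shared reads more than once. The intervals of those sums may then be too narrow.

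**Figure D5:**
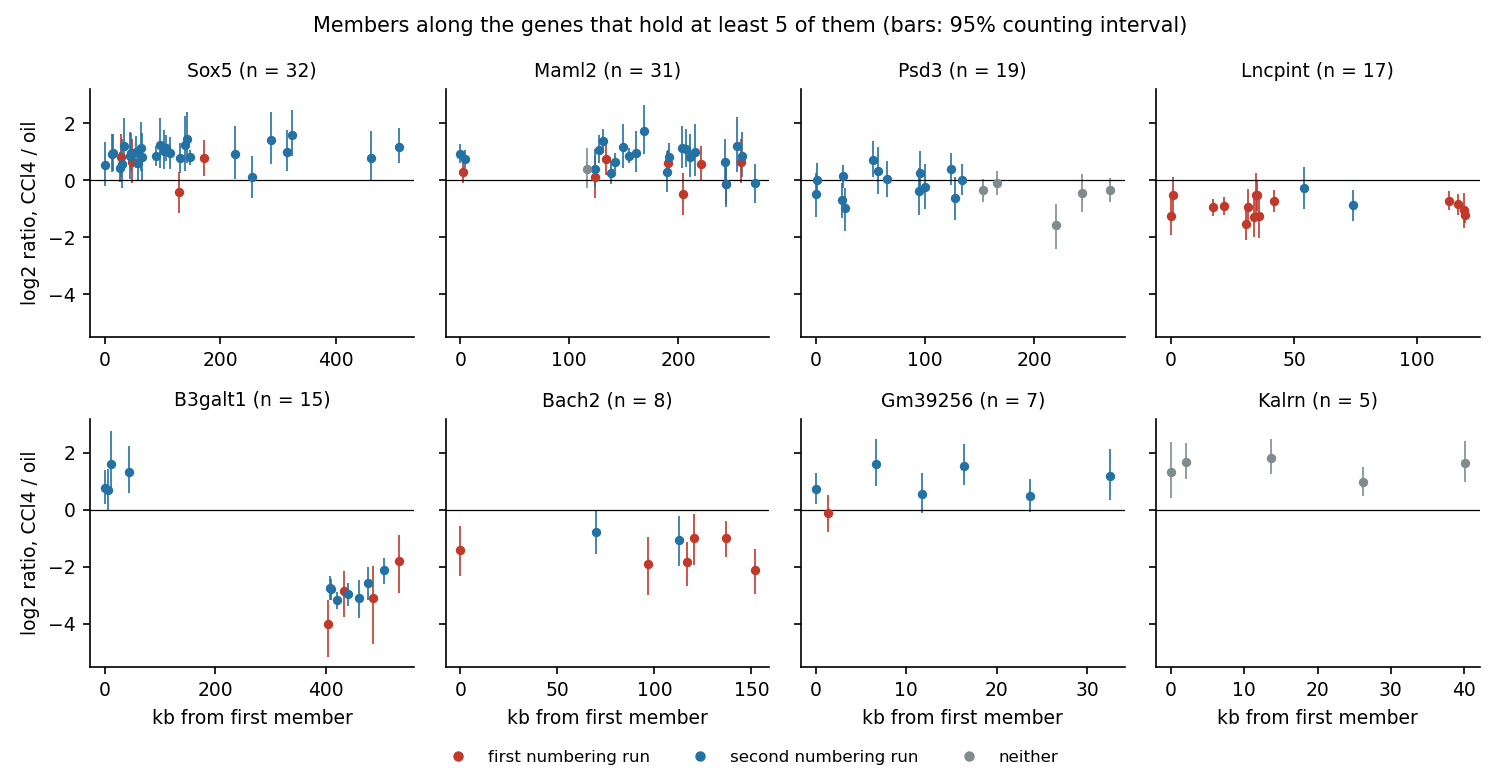
Log2 ratio of CCl4 to oil CPM (y axis) of each member along the 8 genes that hold at least 5 members, against distance in kb from the first member (x axis), 1 panel per gene, with bars for the 95% counting interval and colours for the numbering run. Members of Sox5, Maml2, Gm39256 and Kalrn lie mostly above 0, those of Lncpint and Bach2 all below 0, those of Psd3 on both sides, and those of B3galt1 in 2 separate groups.

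Sox5, a transcription factor gene of the SOX family on the minus strand of chr6:143828425-144782287, held 32 members with 1123 reads in oil and 2331 in CCl4, a log2 ratio of 0.87 (interval 0.77 to 0.97). Individual members had 14 to 183 reads in oil and 32 to 362 in CCl4. The 28 members of the second numbering run had a median log2 ratio of 0.95 and the 4 of the first 0.70. In all, 31 of 32 lay above 0, against 200 of the 263 second-run members, and the range was -0.43 to 1.59. At least 2-fold higher were 11 (34.4%), against 31.2% of second-run members, 19.0% of all members and 32.1% of all new lncRNAs. The spread between members (SD 0.39) was close to the counting error (0.35), so the rows of this gene differed among themselves by little more than counting alone gives. The Sox5 mRNA was listed at 1.16 RPKM in oil and at 0 in CCl4.

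Maml2, which encodes a coactivator of Notch signalling (chr9:13296561-13709533, plus strand), held 31 members with 1576 and 2924 reads and a log2 ratio of 0.71 (interval 0.62 to 0.80). Of these, 27 lay above 0, against 200 of the 263 second-run members. At least 2-fold higher were 7 (22.6%), against 31.2% of second-run members and 32.1% of all new lncRNAs. The 22 members of the second numbering run had a median log2 ratio of 0.86 and the 8 of the first 0.43. Over all members the range was -0.48 to 1.71, with an SD of 0.49 against a counting error of 0.31. The 4 below 0 (TCONS_00082517, TCONS_00082524, TCONS_00083212 and TCONS_00083223) all had intervals that spanned 0. The Maml2 mRNA was listed at 0 in oil and at 2.07 RPKM in CCl4. Kalrn, which encodes kalirin (chr16:33969073-34573277, minus strand), held 5 members with 13 and 38, 29 and 106, 30 and 123, 48 and 108, and 22 and 79 reads. All 5 were higher in CCl4, with log2 ratios from 0.98 to 1.83 and a summed ratio of 1.49 (interval 1.22 to 1.77). They belonged to neither run, and of the 96 such members 48 lay above 0. The Kalrn mRNA was at 1.20 RPKM in oil and 2.05 in CCl4. The 7 members in the lncRNA gene Gm39256 (chr8:115575576-115644889) had 213 and 422 reads and a log2 ratio of 0.80 (interval 0.56 to 1.05). At least 2-fold higher were 3 of them (42.9%, against 32.1% of all new lncRNAs). Of the 7, 6 belonged to the second numbering run, and the 1 of the first was at -0.12.

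Psd3, which encodes an exchange factor for a small GTPase of the ARF family (chr8:67689082-68212063), held 19 members with 997 and 1000 reads. Their summed log2 ratio was -0.18 (interval -0.31 to -0.05) and single members ran from -1.57 to 0.72. On the library totals 15 of the 19 intervals spanned 0, and the median of its members, -0.23, was -0.56 on the mRNA scale and -0.71 with median-of-ratios factors. Its mRNA was at 4.03 RPKM in oil and 3.07 in CCl4.

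Lncpint, a p53-induced lncRNA gene on the minus strand of chr6:31093563-31218474, held 17 members with 1986 reads in oil and 1182 in CCl4. All 17 had ratios below 0, whereas 69 of the 198 first-run members lay above it. At least 2-fold lower were 6 (35.3%), against 37.4% of first-run members and 24.7% of all new lncRNAs. In 13 the interval lay wholly below 0, against 26.8% of all new lncRNAs. The range was -1.55 to -0.27 and the summed log2 ratio -0.93 (interval -1.04 to -0.83). Here too the spread between members (SD 0.34) was close to the counting error (0.27). Of the 17, 15 belonged to the first numbering run, and the 2 of the second (TCONS_00067991 with 34 and 32 reads, TCONS_00067993 with 81 and 50) also lay below 0. Bach2, which encodes a transcriptional repressor best known in lymphocytes (chr4:32238413-32586109, plus strand), held 8 members with 32 to 73 reads in oil and 12 to 35 in CCl4. The 6 members of the first numbering run had a median log2 ratio of -1.62 and the 2 of the second -0.91. In CPM the lowest value in oil (0.513) was above the highest in CCl4 (0.493), although these are different transcripts of one gene and not replicates. A row with as few as 12 CCl4 reads could reach the read minimum only through its oil reads, so nothing is read from this gap. All 8 intervals lay below 0, against 26.8% of all new lncRNAs, and the summed log2 ratio was -1.39 (interval -1.67 to -1.13). The Bach2 mRNA differed little, at 1.29 RPKM in oil and 1.41 in CCl4.

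B3galt1, a galactosyltransferase gene on the plus strand of chr2:67565689-68122882, held the most divided set. Its 15 members fell on either side of a stretch of 357860 bases without a member. The 4 nearest the start of the gene (67568141 to 67613781) had 36 and 71, 27 and 50, 11 and 39, and 18 and 53 reads, 92 and 213 in sum, with a log2 ratio of 1.02 (interval 0.67 to 1.40). The 11 near its end (67971641 to 68102523) had 2864 reads in oil and 440 in CCl4, with a log2 ratio of -2.89 (interval -3.04 to -2.74) and single values from -4.02 to -1.81. The ranges of the 2 groups did not overlap, although both lay in one gene. The 11 alone held 2864 of the 29413 member reads in oil. They came from both runs, with 4 of the first and 7 of the second, and the B3galt1 mRNA was also lower in CCl4, at 3.90 RPKM in oil and 1.08 in CCl4. Without the 15 members of B3galt1, r for consecutive numbers was 0.81.

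Members followed the mRNA of their host gene only loosely. Of the 105 protein-coding host genes, 93 were found in the mRNA table and 82 had a value in both libraries. Over these 82 genes the median log2 ratio of the members and that of the mRNA had a Spearman rank correlation of 0.38 and a Pearson's r of 0.60, and 57 had the same sign on these scales. This correlation is across genes of the same 2 libraries, and reads of a host transcript cannot be told apart from those of a member within it. The median log2 ratio of mRNA transcripts was 0.33 and that of members in protein-coding genes also lay above 0. Some shared signs would arise from that lean alone. Pearson's r includes the outlying Mup20 (-7.05 for the member, -2.50 for the mRNA), whose assignment is uncertain. By class, members in protein-coding genes had a median log2 ratio of 0.51 (50 at least 2-fold higher, 35 lower) and those in lncRNA genes -0.51 (14 higher, 30 lower). Without the 8 genes that held at least 5 members, these medians were 0.41 (n = 131) and -0.32 (n = 80). Over all new lncRNAs the 533 rows in protein-coding genes had 0.58 (169 higher, 92 lower) and the 240 in lncRNA genes -0.16 (65 higher, 79 lower). The members' median in protein-coding genes was 0.19 on the mRNA scale and 0.04 with median-of-ratios factors, so little of it was left there, and that in lncRNA genes was -0.83 and -0.98. The median of members outside genes, 0.12 (37 higher, 44 lower), turned to -0.21 on the mRNA scale, and over all rows outside genes it was 0.33 (n = 599, 196 higher, 174 lower).

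Spliced members were also described apart from the unspliced ones. The median log2 ratio of all 39 was -0.30, with 5 at least 2-fold higher and 13 lower, against 0.30 in the unspliced members (101 higher, 104 lower), whose median turned to -0.02 on the mRNA scale. The 20 spliced members on the plus strand had a median of -0.06 (4 higher, 4 lower). Most of the lean lay in the 19 on the minus strand, at -0.82 (1 higher, 9 lower). Over all new lncRNAs the 91 spliced rows had a median of 0.22 (26 higher, 27 lower), so the lean of the spliced members to oil was not seen in the whole table. TCONS_00085718 (chrX:108660566-108665033, minus strand), over Gm379, had 255 reads in oil and 21 in CCl4, a log2 ratio of -3.76 (interval -4.50 to -3.14). TCONS_00009356 over Gm40770 on chromosome 10 had 104 and 21 reads (log2 ratio -2.47, interval -3.24 to -1.81). Of the higher ones, TCONS_00004814 over Gm52945 had 31 and 102 reads (log2 ratio 1.52, interval 0.94 to 2.16) and TCONS_00062922 over Tmem156 had 111 and 231 (log2 ratio 0.87, interval 0.54 to 1.21). TCONS_00017164 over 3110053B16Rik, with 140 and 156 reads, was at -0.03 (interval -0.37 to 0.31), so any difference there was within counting error.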

How the data were processed

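RNA-seq was made from total RNA of primary hepatocytes, isolated by perfusion and density gradient, in 2 libraries (oil and CCl4, 1 each). Per the labels, TRIzol RNA and standard Illumina libraries were used, and the submitters' processing notes name CASAVA 1.4, TopHat2 and mm10. The assembler, counting program, strand setting and annotation version are not given in the sources used here. The deposited new lncRNA table holds the authors' read counts, lengths and RPKM per library. Columns with the authors' own comparison (log2 change, p and q) were not used. The mRNA and lncRNA tables hold deposited values read here as RPKM, a unit inferred from the values, with values under 1 listed as 0.

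Library totals were derived from the counts, lengths and RPKM, which they reproduced within 0.000483%. CPM used these totals. Log2 ratios had 0.5 reads added, calls required 2-fold, and ratios carry exact 95% Clopper-Pearson intervals, tested on simulated data. With 1 library per group no test was possible. Correlations are descriptions. Gene bounds and promoter windows came from RefSeq (GRCm38.p6). Intervals came from scipy 1.17.1 and tables from pandas 2.3.3, run in Python 3.11.15 with numpy 2.4.6, and figures from matplotlib 3.10.9.

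The named members were the 8 largest and 8 smallest ratios, the 6 highest mean CPM, the 3 longest, the 3 shortest, those with 0 reads, the 3 longest series of consecutive numbers (ties by lowest number) and the threshold neighbours. Others named were chosen after their values were seen. Members, lists and rules were chosen with earlier results of these data known. Alternatives changed the scaling, the added reads, the read minimum, the call rule and which members were counted.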

Additional observations from a re-analysis of the deposited data

How the results depend on the processing

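With 2 libraries of low counts per transcript, no difference can be set against biological spread. No paired analysis was possible because each group held 1 library. The median log2 ratio of 0.29 became -0.031 on the mRNA scale, -0.18 with median-of-ratios factors, 0.45 at a minimum of 20 reads, 0.41 at 100 reads and 0.46 with no minimum. The 106 members at least 2-fold higher became 70 on the mRNA scale, 49 with median-of-ratios factors, 444 at 20 reads, 34 at 100 reads, 463 with no minimum, 30 where the whole interval had to exceed 1, and 21 at 4-fold. The 117 at least 2-fold lower became 345 at 20 reads, 32 at 100 reads, 356 with no minimum, 57 by the whole interval and 43 at 4-fold. Counts at other minimums rest on other numbers of transcripts. The rank correlation of ratio and length was -0.059 at 20 reads and 0.25 at 100 reads, and, in alternatives chosen after seeing the data, -0.0057 without the genes of 5 or more members and -0.23 in the first run. The rank correlation of ratio and depth was -0.16 at 20 reads, 0.30 in the first run and -0.17 in the second, and the rank correlation of absolute ratio and depth was -0.42 at 20 reads and 0.081 at 100 reads. The r of consecutive numbers was 0.93 at 100 reads (13 pairs), and that of numbers 6 to 20 apart 0.63. The cause of these shifts was not tested. The count of members at least 2-fold lower also became 155 on the mRNA scale and 171 with median-of-ratios factors, and the correlation of ratio and depth -0.052 at 100 reads.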
